A study of Mus musculus with 31 samples.

Results

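The comparison described here asked whether myocardial infarction (MI) changed gene expression differently in cDC2 and in macrophages of the mouse heart. The quantity tested was a difference of differences: the MI effect in cDC2 (MI minus steady state, SS) minus the MI effect in CD11c-negative macrophages. It compared 15 of the study's 31 libraries, chosen by their titles: 4 SS cDC2, 3 MI cDC2, 4 SS macrophage and 4 MI macrophage libraries. The read filter, the scaling and the estimate of spread came from a fit of all 31. All 24421 genes in the count files were considered, and 13039 had enough reads to be tested. A fit of the 15 libraries alone tested 12342. Both cell types came from the heart, the mice were Balb/c, 8 to 12 weeks old, and the labels name no genetic change. For MI the left anterior descending coronary artery was tied off for good, and the hearts were digested with enzymes before cells were sorted by FACS. The labels call the second population both macrophages and CD11c-negative monocyte-derived cells. The time after ligation, the sex of the mice, the sorting antibodies, any sham surgery and any pooling of hearts are not stated in the labels. Nothing says that the replicates came from separate animals, so the p-values measure the spread between these samples, which may be technical. Any difference in handling between SS and MI hearts that touched 1 cell type more than the other cannot be told apart from the MI response.

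Conventional type 2 dendritic cells (cDC2) take up antigen in tissues, carry it to lymph nodes and present it on MHC class II to CD4+ T cells. Cardiac macrophages include long-lived resident cells, which clear dying cells and mark themselves with receptors such as Tim-4, and cells that arise from blood monocytes recruited through the chemokine receptor CCR2. After infarction monocytes enter the heart in large numbers and turn into macrophages, while resident macrophages are lost from the infarcted area. A change in a sorted population can therefore come from a change within cells or from a change in which cells fill the gate. In bulk RNA, fewer cells of a type and less RNA per cell cannot be told apart.

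The sorted populations carried the markers of their labels. Levels are given as CPM (reads of a gene scaled to the library's total, with TMM factors), which compare 1 gene between libraries and not different genes. Flt3, a growth factor receptor of dendritic cells, lay between 51.7 and 217 CPM in the cDC2 libraries and between 0.291 and 3.49 CPM in the macrophage libraries. C1qa, a complement subunit made by macrophages, lay between 3572 and 6667 CPM in macrophages and between 85.9 and 714 CPM in cDC2. The summed level of 9 macrophage markers in cDC2 was 3602 to 5087 CPM in SS and 2117 to 2979 CPM after MI, and in macrophages it was 22008 to 25029 CPM and 17582 to 22871 CPM. The 8 cDC2 markers summed to 3652 to 5411 CPM in SS cDC2 and 4742 to 5552 CPM in MI cDC2, and to 728 to 970 CPM and 277 to 321 CPM in SS and MI macrophages. Both the macrophage sum in cDC2 and the cDC2 sum in macrophages were thus lower after MI, with no overlap between libraries, and none of these markers was at 0 in a whole group. Most of the cDC2 sum in macrophages was Mgl2, a lectin gene, whose median went from 677 CPM in SS to 157 CPM after MI. In the same libraries Itgax, Dpp4 and Flt3 were higher after MI without overlap, with medians of 6.73 and 38.9 CPM for Itgax, 1.82 and 9.11 CPM for Dpp4, and 0.484 and 2.41 CPM for Flt3. The 7 cardiomyocyte markers summed to 93.8 to 134.5 CPM in SS macrophages, 41.1 to 83.6 CPM in MI macrophages and between 3.67 and 10.2 CPM in cDC2. The part of these shifts in the results below was not tested. The 15 libraries held 9148624 to 15671670 reads in genes.

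**Figure D1:**
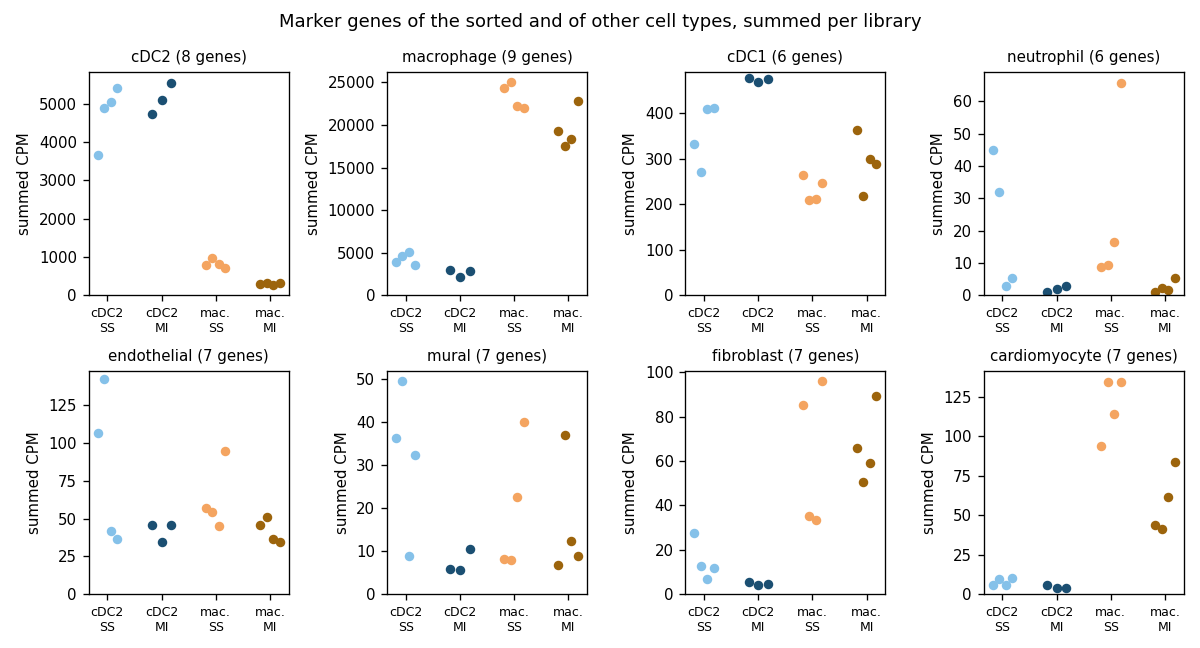
Summed level (CPM, y axis, from 0) of marker genes of the 2 sorted cell types and of 6 other cell types in each library, by cell type and state (x axis; mac., macrophages); each point is 1 library. The macrophage markers in cDC2 are lower after MI (2117 to 2979 CPM) than in SS (3602 to 5087 CPM), and the mural and endothelial sums vary most among the SS cDC2 libraries.

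The MI response differed between the cell types for 586 genes, 4.49% of those tested, at an adjusted p under 0.05 in edgeR's quasi-likelihood test, and such genes are named as called below. MI raised 188 of them more, or lowered them less, in cDC2 than in macrophages (1.44%), and 398 showed the reverse (3.05%). The median difference over all 13039 genes was -0.017 on the log2 scale, and the median size among the called genes was 1.40. The 2 responses differed by 2-fold or more for 426 of the 586 (3.27% of those tested), 130 higher in cDC2 (0.997%) and 296 lower (2.27%). The called genes were then sorted by whether MI changed them within each cell type at the same threshold, which 1440 genes passed in cDC2 (11%) and 963 in macrophages (7.39%). MI changed 304 of the 586 in cDC2 but not past the threshold in macrophages (2.33% of those tested), and 147 in macrophages but not past it in cDC2 (1.13%). It changed 25 in both cell types in the same direction by unequal amounts (0.192%), 62 in opposite directions (0.475%), and 48 past the threshold in neither (0.368%). By sign alone, with no threshold on either effect, 440 of the 586 had effects of opposite sign, as did 5196 of all 13039 genes (39.8%). Choosing genes by the difference of the effects favours unlike signs. All these counts share the same 15 libraries and are descriptions of the 586.

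The SS libraries numbered 1 and 4 had more reads outside annotated genes (11.6% to 16.9%) than those numbered 2 and 3 (6.42% to 9.26%), in both cell types. The MI libraries held 7.75% to 10.9%. With the SS libraries numbered 1 and 4 alone, 306 genes were called, and with those numbered 2 and 3 alone 379, which include 45.2% and 55.5% of the 586. One of the 586, Kit, had the other sign with libraries 1 and 4, and none did with libraries 2 and 3. The number of genes changed in opposite directions was 23 and 38 in these splits, against 62 with all libraries. Each split also leaves fewer SS libraries, and the part of this in the lower counts was not tested. Without 1 MI cDC2 library at a time the number was 37 to 39.

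**Figure D2:**
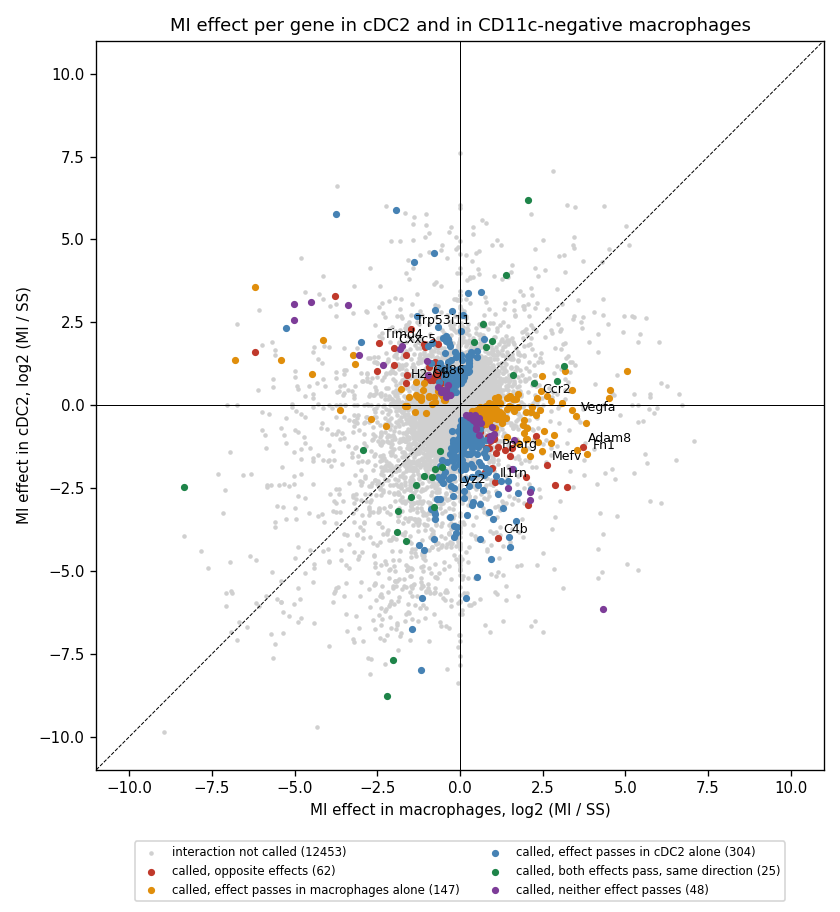
MI effect in macrophages (x axis) and in cDC2 (y axis), both as log2 of MI over SS, for each of the 13039 genes tested; coloured points are the 586 genes called for the difference, by class, and the dashed line marks equal effects. The 62 genes with opposite effects (red) lie at the upper left and lower right. Most other called genes passed the threshold in 1 cell type alone, which does not show that the other was unchanged.

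The 62 genes that MI changed in opposite directions (0.475% of those tested) fell into 27 that rose in cDC2 and fell in macrophages and 35 that did the reverse. For 45 of them, 20 and 25 in the 2 directions, the MI and SS libraries did not overlap in either cell type. Over all 13039 genes tested, 138 had effects of unlike sign and no overlap in either cell type. The 62 were chosen by tests on these same libraries, so the 45 are a description. The count of 62 needs 2 further tests to pass and was 37 when the MI cDC2 library 2 was left out and 64 without the SS cDC2 library 4. All 62 remained called for the difference of the 2 effects whichever single library was left out. Of the 62, 55 were still called with SS libraries 1 and 4 alone, 56 with 2 and 3 alone, and 60 with limma voom. With the endothelial and mural marker level as a covariate 36 genes had opposite effects, and all 62 were again still called for the difference.

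Timd4 and Mfge8, which act in the uptake of dying cells, were among the 27 genes that rose in cDC2 and fell in macrophages. Timd4 (chromosome 11, 46810800 to 46844332, + strand, GRCm38) encodes Tim-4, a phosphatidylserine receptor of resident macrophages. Its level was 11.3, 28.9, 47.4 and 26.4 CPM in the SS cDC2 libraries and 109.7, 131 and 75.7 CPM in the MI cDC2 libraries. In macrophages it was 55.5, 85, 74.1 and 69.2 CPM in SS and 9.92, 19.9, 10.3 and 11.7 CPM after MI. The libraries of the 2 states did not overlap in either cell type, and the order of the cell types turned over: SS macrophages lay above all SS cDC2 libraries, and MI macrophages below all MI cDC2 libraries. MI raised it 3.7-fold (log2 1.89 ± 0.33, adjusted p = 0.000258) in cDC2 and lowered it 5.49-fold (log2 -2.46 ± 0.33, adjusted p = 1.15e-05) in macrophages, a difference of 4.35 ± 0.47 (log2, SE; adjusted p = 6.56e-07). With SS libraries 1 and 4 alone this difference was 4.78, and with 2 and 3 alone 4.09. Mfge8, the secreted bridge between phosphatidylserine and integrins, lay at 43.1, 48.9, 53.7 and 56.9 CPM in SS cDC2 and 90.4, 87.8 and 105 CPM in MI cDC2. In macrophages it lay at 96.4, 87, 83.7 and 87.3 CPM and 50.1, 40.6, 43.8 and 46.6 CPM. Each cell type took up after MI about the level that the other had in SS, without overlap between states. The difference of the MI effects was 1.87 ± 0.29 (log2, SE; adjusted p = 7.83e-05). Of the 19 efferocytosis genes tested, 2 were called higher in cDC2 (Timd4 and Mfge8) and 3 lower, beside 1.44% and 3.05% of all genes, with a median of -0.76. The 3 were Cd36, a scavenger receptor, Itgav, an integrin subunit, and Havcr2, which encodes Tim-3.

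Trp53i11, named for its induction by p53, also rose in cDC2 and fell in macrophages. It lay at 18.3, 24.9, 27.7 and 34.7 CPM in SS cDC2 and 119, 136 and 136 CPM in MI cDC2. SS macrophages had 18.6, 9.61, 7.51 and 15.5 CPM and MI macrophages 5.79, 3.67, 4.54 and 4.3 CPM. MI raised it 4.94-fold (log2 2.30 ± 0.25, adjusted p = 1e-07) in cDC2 and lowered it 2.8-fold (log2 -1.48 ± 0.26, adjusted p = 0.000215) in macrophages, and the difference was 3.79 ± 0.36 (log2, SE; adjusted p = 2.33e-08). Cxxc5, which encodes a CXXC zinc finger protein, also exchanged its levels between the cell types. Its cDC2 values were 4.81, 9.9, 5.04 and 7.3 CPM in SS and 25, 22.2 and 19.4 CPM after MI. Its macrophage values were 25.2, 17.3, 27 and 17.5 CPM and 6.15, 7.75, 4.02 and 3.66 CPM, and the difference was 3.72 ± 0.44 (log2, SE; adjusted p = 1.03e-06). Slc14a1, a urea transporter, differed by 3.22 ± 0.35 (log2, SE; adjusted p = 2.2e-07), Cd33, a sialic acid-binding receptor, by 2.06 ± 0.32 (log2, SE; adjusted p = 7.92e-05), and Gpr183, the oxysterol receptor that guides dendritic cell positioning, by 1.77 ± 0.23 (log2, SE; adjusted p = 6.67e-06). For Gpr183 the cDC2 libraries went from 100.5, 108, 175 and 143 to 255, 310.3 and 266 CPM, and the macrophage libraries from 287, 289, 301 and 214 to 156, 154, 199 and 166 CPM. Adam23, a membrane adhesion protein, and Ppm1j, a phosphatase, had few or no reads in MI macrophages. Adam23 rose from 1099 to 2613 reads in the cDC2 groups and went from 35 reads in SS macrophages to 0 in MI macrophages. Set against a floor of 3 reads over the group, its fall in macrophages was at least 13-fold, and at least 5.49-fold without SS macrophage library 1, which held 24 of the 35 reads. The Adam23 difference lost its call with SS libraries 2 and 3 alone (adjusted p = 0.276) and with limma voom (adjusted p = 0.0711). Ppm1j had 44 reads in SS macrophages and 3 in MI macrophages, a ratio of 16.4 with an exact 95% interval of 5.25 to 82.5 that covers counting error only. Without SS macrophage library 2, which held 24 of the 44 reads, the Ppm1j ratio was 9.89 (2.93 to 52.0).

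**Figure D3:**
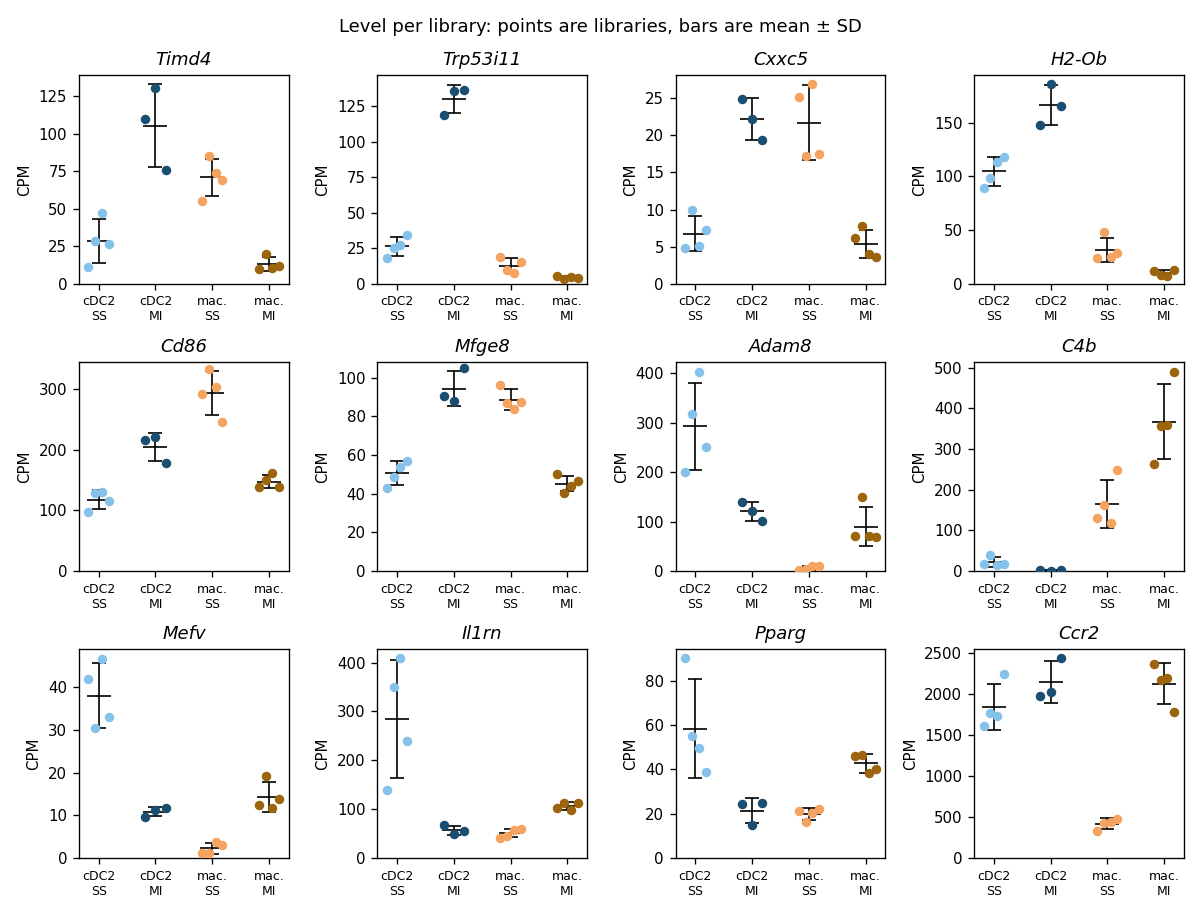
Level in CPM (y axis, from 0) of 12 genes in each of the 15 libraries, by cell type and state (x axis; mac., macrophages); points are libraries and bars the mean ± SD. Timd4, Trp53i11, Cxxc5, H2-Ob, Cd86 and Mfge8 rise in cDC2 and fall in macrophages, Adam8, C4b, Mefv, Il1rn and Pparg do the reverse, and Ccr2 rises in macrophages while its cDC2 libraries overlap.

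Of the 14 MHC class II presentation genes 2 were called, H2-Ob and Ciita, both higher in cDC2, beside 1.44% of all genes, with a median of 0.42. H2-Ob (chromosome 17, 34238903 to 34254414, + strand, GRCm38) encodes the beta chain of H2-O, which restrains peptide loading of MHC class II. It lay at 88.8, 98.4, 114 and 118 CPM in SS cDC2 and 148, 186 and 166 CPM in MI cDC2. SS macrophages had 23.9, 48.6, 25.1 and 28.5 CPM and MI macrophages 11.9, 8.26, 7.53 and 12.7 CPM. MI raised it 1.59-fold (log2 0.67 ± 0.19, adjusted p = 0.0185) in cDC2 and lowered it 3.1-fold (log2 -1.63 ± 0.19, adjusted p = 7.94e-07) in macrophages, and the difference was 2.30 ± 0.27 (log2, SE; adjusted p = 1.03e-06). Ciita, the master regulator of MHC class II transcription, had 154, 115, 169.8 and 196 CPM in SS cDC2 and 343, 351 and 301 CPM in MI cDC2. Its macrophage libraries overlapped, at 95, 65.7, 66.9 and 112 CPM in SS and 82.5, 68.7, 53.3 and 73.3 CPM after MI, and the difference was 1.35 ± 0.29 (log2, SE; adjusted p = 0.00367). The class II chains themselves did not pass: H2-Aa differed by 0.71 ± 0.23 (log2, SE; adjusted p = 0.0706) and H2-Ab1 by 0.71 ± 0.23 (log2, SE; adjusted p = 0.072). Both came near the threshold and passed it under several alternatives, among them DESeq2, with adjusted p = 0.0384 and 0.0414, and the replicate block by state and number, with adjusted p = 0.0308 and 0.0353. Their levels moved by 0.01 and 0.12 (log2) in cDC2, with adjusted p = 0.994 and 0.73. In macrophages MI lowered H2-Aa 1.63-fold (log2 -0.71 ± 0.16, adjusted p = 0.00351) and H2-Ab1 1.51-fold (log2 -0.59 ± 0.16, adjusted p = 0.0152). Reads of Balb/c H2 genes can be lost when counted against a reference of another strain, and how many were lost was not tested.

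Cd86 (chromosome 16, 36603869 to 36666081, - strand, GRCm38), the costimulatory ligand of CD28, crossed over as well. Its level was 96.7, 128, 130.5 and 116 CPM in SS cDC2 and 216, 221 and 178 CPM in MI cDC2. In macrophages it was 293, 333, 303 and 245 CPM in SS and 139, 150.3, 162 and 138 CPM after MI. SS macrophages thus lay above all SS cDC2 libraries and MI macrophages below all MI cDC2 libraries. MI raised it 1.74-fold (log2 0.80 ± 0.18, adjusted p = 0.00254) in cDC2 and lowered it 1.99-fold (log2 -0.995 ± 0.17, adjusted p = 0.000164) in macrophages, and the difference was 1.79 ± 0.25 (log2, SE; adjusted p = 1.17e-05). Of the 28 maturation and costimulation genes, only Cd86 (higher in cDC2) and Icam1 (lower, an adhesion ligand) were called. Over all genes 1.44% were called higher and 3.05% lower, and the median of the list was 0.38. Fscn1, an actin-bundling protein of migrating dendritic cells, differed by 4.08 ± 1.20 (log2, SE; adjusted p = 0.052), which misses the threshold. With DESeq2 it passed (adjusted p = 0.00394), as it did without SS cDC2 library 3 (adjusted p = 0.0138). Its MI cDC2 libraries spread widely, at 786, 246 and 159 CPM, and without the MI cDC2 library 1 its difference was 3.11 (adjusted p = 0.213). Ccr7, the receptor that leads dendritic cells to lymph nodes, had 67.3, 359, 929 and 324 CPM in SS cDC2 and 1039.7, 535 and 412 CPM in MI cDC2, and at most 3.92 CPM in any macrophage library, with a difference of 1.30 ± 1.43 (log2, SE; adjusted p = 0.76).

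Adam8, Hpse, C4b, Mefv and Il1rn were among the 35 genes that fell in cDC2 and rose in macrophages. Adam8 (chromosome 7, 139978932 to 139992562, - strand, GRCm38) encodes a membrane metalloproteinase of activated myeloid cells. It lay at 199, 318, 402 and 250.4 CPM in SS cDC2 and 140.3, 121 and 101 CPM in MI cDC2. SS macrophages had only 2.57, 4.12, 10.5 and 10.1 CPM, and MI macrophages 70.6, 149, 70.8 and 69.7 CPM. The states did not overlap in either cell type, and the gap between cDC2 and macrophages narrowed. MI lowered it 2.42-fold (log2 -1.27 ± 0.37, adjusted p = 0.0251) in cDC2 and raised it 13.1-fold (log2 3.72 ± 0.39, adjusted p = 5.4e-07) in macrophages, and the difference was -4.99 ± 0.55 (log2, SE; adjusted p = 1.29e-06). With SS libraries 1 and 4 alone it was -4.69, and with 2 and 3 alone -5.19. Hpse encodes heparanase, which cuts heparan sulphate of the matrix. Its cDC2 libraries went from 148, 168, 155 and 129 to 73.9, 75.3 and 87.5 CPM and its macrophage libraries from 12.2, 23.7, 34.7 and 14.4 to 109.7, 119, 95.4 and 94.5 CPM. SS cDC2 lay above all SS macrophage libraries, MI macrophages lay above all MI cDC2 libraries, and the difference was -3.23 ± 0.42 (log2, SE; adjusted p = 1.11e-05).

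C4b (chromosome 17, 34728380 to 34743882, - strand, GRCm38), the complement component C4, was mainly a macrophage transcript. SS macrophages had 130.0, 162, 117 and 249 CPM and MI macrophages 264, 356, 359 and 489.8 CPM. In cDC2 it lay at 17.5, 39.6, 16 and 16.5 CPM in SS and only 2.26, 0.397 and 1.45 CPM after MI. MI lowered it 16.1-fold (log2 -4.01 ± 0.55, adjusted p = 1.81e-05) in cDC2 and raised it 2.23-fold (log2 1.16 ± 0.36, adjusted p = 0.0488) in macrophages, and the difference was -5.17 ± 0.65 (log2, SE; adjusted p = 1.68e-05), or -4.54 with SS libraries 1 and 4 alone. Because the gene is so much more abundant in macrophages, its cDC2 values stand beside the macrophage marker sum in cDC2 given above, whose part in them was not tested. Mefv encodes pyrin, an inflammasome sensor. It lay at 41.9, 30.3, 46.5 and 33 CPM in SS cDC2, 9.6, 11.3 and 11.8 CPM in MI cDC2, 1.24, 1.27, 3.76 and 3.01 CPM in SS macrophages and 12.4, 19.3, 11.8 and 13.8 CPM in MI macrophages. The difference was -4.42 ± 0.74 (log2, SE; adjusted p = 0.000256). Il1rn encodes the antagonist of the interleukin-1 receptor. Its cDC2 values were 138, 350.4, 409 and 240.4 CPM in SS and 67.3, 48.8 and 56.6 CPM after MI. Its macrophage values were 42.1, 46.1, 57.2 and 60.7 CPM and 102, 112, 99.3 and 114 CPM, so that MI macrophages lay above all MI cDC2 libraries and SS macrophages below all SS cDC2 libraries. The difference was -3.36 ± 0.49 (log2, SE; adjusted p = 7.63e-05), or -2.75 with SS libraries 1 and 4 alone.

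Mpeg1, Pparg, Tlr8, Cd84 and Psap followed this direction too. Mpeg1, which encodes the pore-forming perforin-2 of phagocytes, lay at 1642, 1747, 1625 and 1578 CPM in SS cDC2 and 816, 437 and 784 CPM in MI cDC2. In macrophages it lay at 1435, 1489, 1419 and 1401 CPM in SS and 2939.9, 2409, 2542 and 2586 CPM after MI. The cell types were close in SS and well apart after MI, and the difference was -2.15 ± 0.18 (log2, SE; adjusted p = 4.02e-09). Pparg (chromosome 6, 115360951 to 115490399, + strand, GRCm38), the nuclear receptor that controls lipid uptake and storage, had 90.4, 55.1, 49.5 and 38.7 CPM in SS cDC2 and 24.3, 14.8 and 25.1 CPM in MI cDC2. Its macrophage libraries had 21.2, 16.3, 20.3 and 22.2 CPM and 46, 46.7, 38.3 and 40.1 CPM. The states did not overlap in either cell type, and the difference was -2.54 ± 0.33 (log2, SE; adjusted p = 4.7e-06). Tlr8, an endosomal RNA sensor, differed by -1.80 ± 0.25 (log2, SE; adjusted p = 4.76e-05), and Cd84, a SLAM family receptor, by -1.99 ± 0.28 (log2, SE; adjusted p = 1.68e-05). Psap, the precursor of the saposins that help lysosomal lipid breakdown, differed by -1.51 ± 0.25 (log2, SE; adjusted p = 0.000164). Its 3 MI cDC2 libraries (3947 to 6327 CPM) lay below all SS cDC2 libraries (8434 to 12732 CPM), while 3 of 4 MI macrophage libraries lay above all SS macrophage libraries. Nfil3, a transcription factor, differed by -2.05 ± 0.38 (log2, SE; adjusted p = 0.00119). Chil3 and Fcrl1 also had opposite effects but lay at 15.1 CPM or less in every library, and Chil3 was not called with SS libraries 1 and 4 alone (adjusted p = 0.0659).

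**Figure D4:**
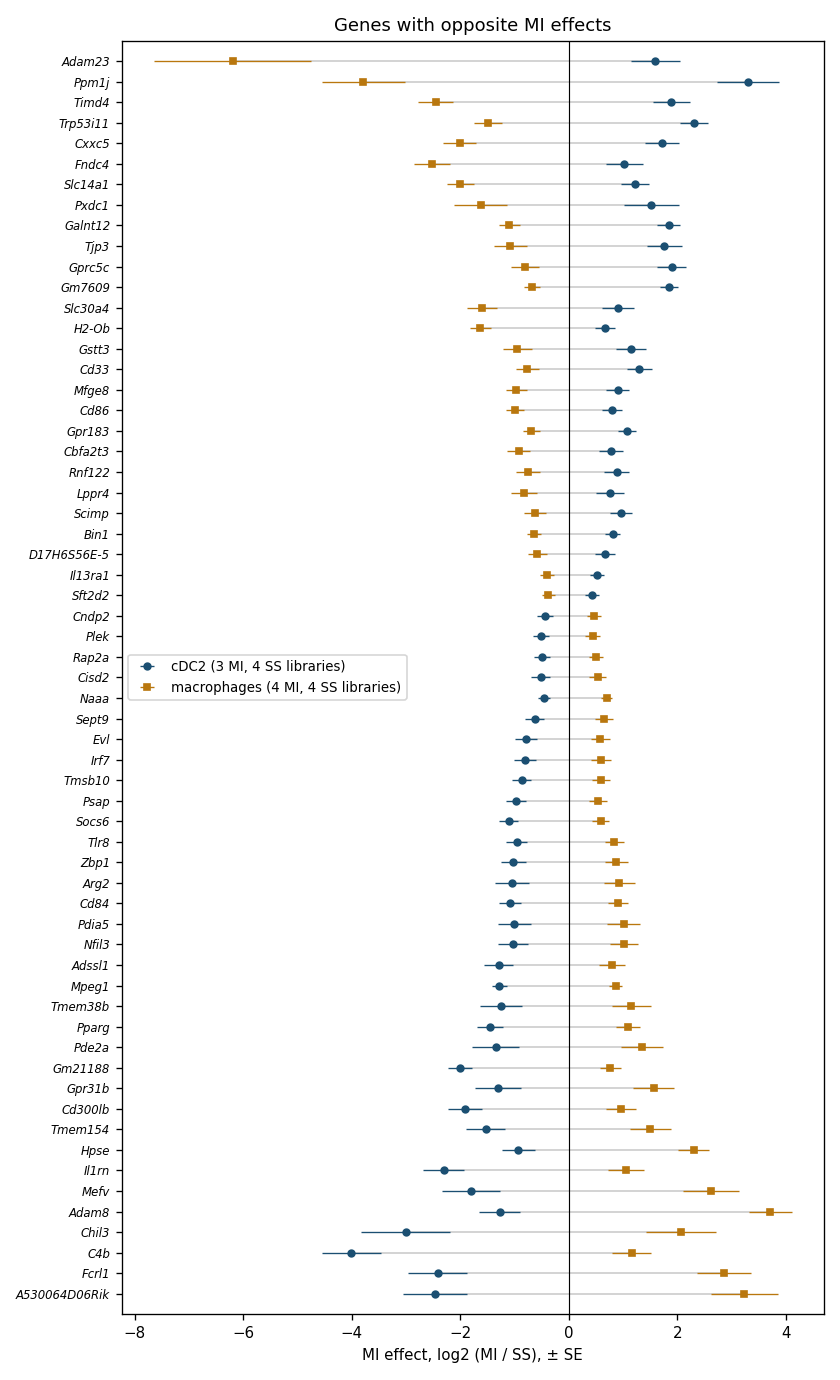
MI effect (x axis, log2 of MI over SS, ± SE from the edgeR model) in cDC2 (circles) and in macrophages (squares) for 61 of the 62 genes changed in opposite directions, ordered by the difference. Adam23 and Ppm1j at the top have 0 and 3 reads in MI macrophages, so their macrophage values depend on the prior count, and near the middle the 2 effects are under 2-fold each.

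Where MI changed a gene in macrophages without a change past the threshold in cDC2, 110 of 147 genes had the lower MI effect in cDC2. Over all called genes it was 398 of 586. Ccr2, Vegfa and Fn1 were among the 110. Ccr2 (chromosome 9, 124101950 to 124113557, + strand, GRCm38), the chemokine receptor of monocytes, had 332, 423, 445 and 481 CPM in SS macrophages and 2361, 2168, 2193 and 1776 CPM in MI macrophages. Its cDC2 libraries overlapped, at 1607, 1772, 1728 and 2246 CPM in SS and 1981, 2025 and 2439.9 CPM after MI. After MI the macrophages thus reached the level of cDC2. MI raised it 5.06-fold (log2 2.34 ± 0.14, adjusted p = 2e-13) in macrophages, and the difference was -2.11 ± 0.20 (log2, SE; adjusted p = 1.71e-08), or -2.20 and -1.99 in the 2 splits. Itgax encodes CD11c, the protein whose absence defined the macrophage gate. Its RNA lay at 11.3, 5.2, 5.3 and 8.16 CPM in SS macrophages and 61.9, 40.9, 23.9 and 37 CPM in MI macrophages, still far below cDC2. The cDC2 libraries also lay higher after MI without overlap, at 489 to 684 CPM in SS and 775 to 851 CPM in MI. The difference was -2.02 ± 0.34 (log2, SE; adjusted p = 0.000281). Itgam, which encodes CD11b, differed by -1.20 ± 0.24 (log2, SE; adjusted p = 0.00229), and by -0.87 (adjusted p = 0.0831) with SS libraries 1 and 4 alone. Cxcr4, the receptor for CXCL12, differed by -1.01 ± 0.22 (log2, SE; adjusted p = 0.00468) and lost its call with SS libraries 2 and 3 alone (adjusted p = 0.0882). Of the 20 chemoattractant receptor and adhesion genes, 5 were called, all lower in cDC2, beside 3.05% of all genes, with a median of -0.73. The classical monocyte list showed the same direction: 10 of 16 were called, all lower in cDC2, beside 3.05% of all genes, with a median of -1.53. In 5 of its 16 genes MI raised macrophages, and in 5 it lowered cDC2, so the list did not move in 1 cell type alone. Over all genes MI changed 7.39% in macrophages and 11% in cDC2, in either direction.

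Vegfa (chromosome 17, 46016993 to 46032369, - strand, GRCm38), the growth factor for blood vessels, rose in macrophages to the level of cDC2. It lay at 2.19, 6.57, 3.47 and 8.64 CPM in SS macrophages and 40.1, 99.2, 51.9 and 45.5 CPM in MI macrophages. In cDC2 the states overlapped, at 26.4, 63.3, 112 and 67.7 CPM and 35.1, 79.4 and 46.7 CPM. MI raised it 11.3-fold (log2 3.50 ± 0.48, adjusted p = 1.98e-05) in macrophages, and the difference was -3.83 ± 0.67 (log2, SE; adjusted p = 0.000623), or -3.23 with SS libraries 1 and 4 alone. Ndrg1, which responds to low oxygen, rose in both cell types. Its macrophage libraries went from 10, 7.84, 14.1 and 14.2 to 97.6, 94.2, 80 and 79.3 CPM and its cDC2 libraries from 43.5, 37.2, 30.9 and 28.3 to 54.1, 56.2 and 65.2 CPM, and the difference was -2.18 ± 0.30 (log2, SE; adjusted p = 1.41e-05). Ero1l, an oxidase of protein folding, differed by -1.19 ± 0.22 (log2, SE; adjusted p = 0.000921). In all, 5 of 27 glycolysis and hypoxia genes were called, all lower in cDC2, beside 3.05% of all genes, with a median of -0.41. MI raised 13 of the 27 in macrophages and 3 in cDC2, where it changed 7.39% and 11% of all genes in either direction. Among the glycolytic enzymes, Pkm differed by -0.81 ± 0.20 (log2, SE; adjusted p = 0.0101), which was lost with SS libraries 1 and 4 alone (adjusted p = 0.155).

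Of the 25 tissue repair and matrix genes, 9 were called lower in cDC2 and 1 higher, beside 3.05% and 1.44% of all genes, with a median of -1.26. Fn1, which encodes fibronectin, had 34.5, 12.3, 35.8 and 176 CPM in SS macrophages and 758, 1363, 845 and 759.8 CPM in MI macrophages. Its cDC2 libraries had 1368, 1772, 1706 and 2267 CPM in SS and 705, 601 and 613 CPM after MI, lower in each MI library, though the cDC2 change did not pass (adjusted p = 0.213). The difference was -5.32 ± 1.05 (log2, SE; adjusted p = 0.00267). SS macrophage library 4 stood far above the other 3, and without it the difference was -6.55 (adjusted p = 0.000157). It was -4.63 with SS libraries 1 and 4 alone and -6.72 with 2 and 3 alone. The gene of this list called higher was Tgfbi, a matrix protein induced by TGF-beta. It went from 364, 455, 475 and 381 CPM to 919.7, 864 and 829 CPM in cDC2, its macrophage libraries overlapped between 698 and 993 CPM, and the difference was 1.22 ± 0.16 (log2, SE; adjusted p = 6.47e-06). Arg1, the arginase of wound macrophages, was not called for the difference. Its MI macrophage libraries had 51.3, 307, 83.9 and 65.1 CPM, library 2 far above the rest, and the difference was -2.51 ± 1.54 (log2, SE; adjusted p = 0.473). Spp1, which encodes osteopontin, rose in both: MI raised it 4.7-fold (log2 2.23 ± 0.50, adjusted p = 0.00335) in cDC2 and raised it 8.1-fold (log2 3.02 ± 0.49, adjusted p = 0.000206) in macrophages, with a difference of -0.79 ± 0.67 (log2, SE; adjusted p = 0.659). Kcnn4, a calcium-activated potassium channel, had 1.53, 0.588, 3.56 and 1.55 CPM in SS macrophages and 42.3, 40.8, 31.6 and 50.3 CPM in MI macrophages. In cDC2 it stayed between 49.9 and 95.3 CPM in both states, and the difference was -4.29 ± 0.41 (log2, SE; adjusted p = 2.51e-08).

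The largest class, 304 genes changed in cDC2 but not past the threshold in macrophages, held 208 genes with a lower MI effect in cDC2. Over all called genes it was 398 of 586. Some of the 208 are genes known for macrophages. Lyz2, which encodes lysozyme, lay at 14339, 25126, 23415 and 15338 CPM in SS cDC2 and 3634, 2169 and 4582 CPM in MI cDC2. In macrophages it stayed at 17079, 21893, 15869 and 16686 CPM in SS and 17649, 14658, 14436 and 16404 CPM after MI. SS cDC2 libraries thus overlapped the macrophage libraries, and MI cDC2 libraries lay far below them. MI lowered it 5.65-fold (log2 -2.50 ± 0.22, adjusted p = 2.68e-09) in cDC2, and the difference was -2.32 ± 0.28 (log2, SE; adjusted p = 1.49e-06). Reads shared with the near copy Lyz1 make its level uncertain. Fcrls, an Fc receptor-like gene of macrophages, went from 900.2, 1771, 1585 and 1344 to 125, 74.1 and 129.8 CPM in cDC2, while macrophages overlapped between 621 and 896 CPM. All SS cDC2 libraries thus lay above the macrophage libraries, and all MI cDC2 libraries below them. The difference was -3.57 ± 0.46 (log2, SE; adjusted p = 1.33e-05). Adgre1, which encodes F4/80, was far lower in cDC2 than in macrophages throughout. It went from 286, 329.9, 301 and 249.8 to 110.3, 66.7 and 137 CPM in cDC2, overlapped between 1163 and 1648 CPM in macrophages, and differed by -1.70 ± 0.28 (log2, SE; adjusted p = 0.000213). F13a1, a clotting factor subunit made by macrophages, differed by -2.51 ± 0.38 (log2, SE; adjusted p = 0.000111). Thbs1, a matrix protein of monocytes, differed by -4.39 ± 0.74 (log2, SE; adjusted p = 0.000438), and by -5.03 (adjusted p = 4.39e-05) without SS macrophage library 4. Without MI cDC2 library 3 the Thbs1 difference was -5.02 (adjusted p = 0.000513), and in the 2 splits of the SS libraries it was -3.56 and -5.46.

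The macrophage marker sum in cDC2 moved with these falls, and its part in them was not tested. Not all macrophage genes fell there. Fcgr1, which encodes CD64, lay between 22.6 and 50.4 CPM in SS cDC2 and between 72.5 and 102 CPM in MI cDC2. Mertk lay between 3.53 and 11.2 CPM in SS cDC2 and between 1.09 and 6.68 CPM in MI cDC2, overlapping. Of the 14 genes of monocyte and macrophage identity, 4 were called, all lower in cDC2 (Lyz2, Adgre1, Fcgr4 and Csf3r), beside 3.05% of all genes, with a median of -0.97. The resident macrophage list gave 1 call in each direction among 29 genes, Timd4 (higher) and Fcrls (lower), beside 1.44% and 3.05% of all genes. Its median was -0.5. MI lowered 18 of the 29 in cDC2 and 12 in macrophages, where it changed 11% and 7.39% of all genes in either direction. Cd163, a haemoglobin scavenger receptor of resident macrophages, is an example: MI lowered it 3.95-fold (log2 -1.98 ± 0.27, adjusted p = 4.18e-06) in cDC2 and lowered it 3.97-fold (log2 -1.99 ± 0.23, adjusted p = 1.1e-06) in macrophages, a difference of 0.00 ± 0.36 (log2, SE; adjusted p = 1).

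Of 20 lipid handling genes, 9 were called, all with a lower MI effect in cDC2, beside 3.05% of all genes, and 11 were not. The median was -1.21. Lpl, which releases fatty acids from lipoproteins, went from 313, 501, 526 and 471 to 120.1, 54.3 and 77.8 CPM in cDC2. Its macrophage libraries overlapped, at 236, 191, 176 and 223 CPM and 194, 124, 204 and 157 CPM, and the difference was -2.14 ± 0.37 (log2, SE; adjusted p = 0.000473). Cd36 fell in both cell types and by more in cDC2. It went from 404, 343, 225 and 199 to 23.1, 21.4 and 16.8 CPM there and from 259, 403, 376 and 305 to 52.6, 102, 106 and 99.4 CPM in macrophages, with a difference of -1.94 ± 0.36 (log2, SE; adjusted p = 0.00119). Scarb1, the receptor for high-density lipoprotein, differed by -1.31 ± 0.21 (log2, SE; adjusted p = 9.43e-05). The cholesterol exporter gene Abcg1 took another course: it was raised 3.33-fold (log2 1.74 ± 0.20, adjusted p = 5.37e-07) in macrophages, with overlapping cDC2 libraries, and differed by -1.40 ± 0.29 (log2, SE; adjusted p = 0.00253). Nr1h3, which encodes the oxysterol receptor LXR-alpha, differed by -2.36 ± 0.56 (log2, SE; adjusted p = 0.00975), and Apoe, the carrier of cholesterol, by -1.78 ± 0.39 (log2, SE; adjusted p = 0.00605). With SS libraries 1 and 4 alone Abcg1, Nr1h3 and Apoe were not called (adjusted p = 0.0579, 0.106 and 0.158). Apoe lay at 15363 to 29534 CPM in macrophages and 215 to 1456 CPM in cDC2. In cholesterol synthesis and uptake, 3 of 23 genes were called, all lower in cDC2, beside 3.05% of all genes, with a median of -0.2. They included Insig1, which restrains sterol synthesis (log2 difference -1.02 ± 0.21, SE; adjusted p = 0.00256) and Hmgcs1, an enzyme of that synthesis (log2 difference -0.83 ± 0.22, SE; adjusted p = 0.0193). Hmgcs1 lost its call without MI cDC2 library 2 or 3 or MI macrophage library 3, with adjusted p from 0.054 to 0.0605, and with SS libraries 1 and 4 or 2 and 3 alone (adjusted p = 0.0669 and 0.191).

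Of 29 type I interferon genes 4 were called, and of 20 interferon gamma genes 4, beside 4.49% of all genes. Over all 586 called genes 398 had the lower MI effect in cDC2. The 7 with a lower MI effect in cDC2 were Irf7, Zbp1, Rsad2, Oasl1, Cxcl10, Gbp2 and Gbp4, and Ciita was the one with a higher effect. The medians were -0.2 and -0.72. Many such genes carry the interferon-stimulated response element, to which STAT and IRF factors bind, upstream of their start. A search for its core (GAAA, 2 bases of any kind, GAAA), on both strands of the 250 bases before the start in RefSeq's promoters (GRCm38.p6), found it in Cxcl10, Gbp2 and Rsad2 among the 5 of these 7 with a promoter in the table. They are shown because they are the called genes that hold the element; the capitals mark it, as TTTC, 2 bases, TTTC where it lies on the opposite strand.

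Cxcl10, chr5:92348890-92349139, - strand: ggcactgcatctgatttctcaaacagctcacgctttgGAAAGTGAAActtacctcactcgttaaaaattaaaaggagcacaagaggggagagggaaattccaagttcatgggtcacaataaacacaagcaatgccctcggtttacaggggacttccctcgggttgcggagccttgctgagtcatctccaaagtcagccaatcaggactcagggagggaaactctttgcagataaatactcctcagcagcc
Gbp2, chr3:142620413-142620662, + strand: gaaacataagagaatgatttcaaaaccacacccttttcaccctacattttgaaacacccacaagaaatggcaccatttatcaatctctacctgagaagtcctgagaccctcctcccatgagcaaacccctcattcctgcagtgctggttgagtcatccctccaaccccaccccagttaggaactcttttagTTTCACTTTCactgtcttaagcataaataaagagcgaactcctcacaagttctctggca
Rsad2, chr12:26456453-26456702, - strand: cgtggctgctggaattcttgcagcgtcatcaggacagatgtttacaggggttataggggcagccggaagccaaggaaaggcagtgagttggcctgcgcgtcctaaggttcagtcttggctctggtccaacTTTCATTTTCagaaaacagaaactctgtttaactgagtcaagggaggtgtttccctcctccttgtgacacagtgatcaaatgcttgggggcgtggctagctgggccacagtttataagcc

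Among the interferon genes that were not called, 20 of 29 with a promoter held the element, and 3.99% of all 27025 genes with a promoter did. No difference between these shares was tested, and a match is a description of letters, not of binding. Cxcl10, a chemokine for T cells, lay at 26.5, 39.3, 44.9 and 50.7 CPM in SS cDC2 and 13.7, 13 and 10.1 CPM in MI cDC2. Its macrophage libraries overlapped, at 23.9, 27.1, 17.9 and 15.9 CPM and 27.6, 20.9, 30 and 46.8 CPM, and the difference was -2.28 ± 0.47 (log2, SE; adjusted p = 0.00249). Rsad2, which encodes the antiviral enzyme viperin, moved instead in macrophages, from 20.1, 25.9, 23.9 and 26.8 to 64.6, 35.2, 62.2 and 72.4 CPM. Its difference was -1.70 ± 0.42 (log2, SE; adjusted p = 0.0119), and the call was lost without MI cDC2 library 2 (adjusted p = 0.0592) and in both SS splits (adjusted p = 0.0951 and 0.1005). Gbp2, a guanylate-binding protein of defence against microbes, differed by -1.81 ± 0.50 (log2, SE; adjusted p = 0.0299). It lost its call without any 1 of 6 libraries, namely MI macrophage 1 and 4, MI cDC2 1 and 2, SS macrophage 1 and SS cDC2 3, with adjusted p from 0.0515 to 0.105. The Gbp2 call was also lost in both SS splits (adjusted p = 0.158 and 0.142), and with a replicate block by state and number (adjusted p = 0.0585). Gbp4, of the same family, lost its call in both SS splits (adjusted p = 0.127 and 0.0652).

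Irf7 and Zbp1 changed in opposite directions. Irf7 (chromosome 7, 141262706 to 141266481, - strand, GRCm38), the factor that amplifies interferon production, lay at 236, 213, 171 and 116 CPM in SS cDC2 and 105, 80.3 and 129.7 CPM in MI cDC2. In macrophages it lay at 213, 225, 210.3 and 205 CPM in SS and 296, 319.8, 289 and 387 CPM after MI. The cDC2 libraries of the 2 states overlapped, since SS library 4 lay below MI library 3, and the macrophage libraries did not. The difference was -1.41 ± 0.27 (log2, SE; adjusted p = 0.00141). Zbp1, a sensor of Z-form nucleic acids, lay at 54.1, 68.8, 42.3 and 39.6 CPM in SS cDC2 and 25.9, 16.7 and 32.9 CPM in MI cDC2. Its macrophage libraries had 31, 43.3, 44.2 and 38 CPM and 49.8, 68, 74.6 and 94.5 CPM, and the difference was -1.90 ± 0.31 (log2, SE; adjusted p = 0.000174). Oasl1, an antiviral protein, differed by -1.56 ± 0.34 (log2, SE; adjusted p = 0.00412), and with SS libraries 1 and 4 alone it was not called (adjusted p = 0.0662).

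For several other gene groups the counts called follow, beside 4.49% of all genes (3.05% lower and 1.44% higher in cDC2). The share called was largest in the lysosomal list, at 20%. None of 15 T cell polarising cytokine genes tested and none of 27 immediate early and heat shock genes was called, with medians of -0.58 and -0.01. At an unadjusted p under 0.05 in edgeR 3 genes of each list passed, beside 2094 of all 13039 genes (16.1%). DESeq2 called 1 and 0, beside 801 of all 13039, and limma voom 0 and 0, beside 576. MI lowered 13 of the 27 immediate early and heat shock genes in cDC2 and 9 in macrophages. It changed 11% and 7.39% of all genes there in either direction. Of 25 NF-kB and inflammatory genes 2 were called, both lower in cDC2, Icam1 and Sod2, a mitochondrial superoxide dismutase (log2 difference -0.90 ± 0.19, SE; adjusted p = 0.00298). Icam1 lost its call without any 1 of 6 libraries (MI cDC2 1 and 3, MI macrophage 4, SS cDC2 2, SS macrophage 3 and 4), with adjusted p from 0.0591 to 0.101, and in both SS splits (adjusted p = 0.239 and 0.0949). Of 17 oxidative phosphorylation genes 2 were called, both lower in cDC2, Cycs and Cox5a (log2 difference -0.89 ± 0.20, SE; adjusted p = 0.00609), and of 20 lysosomal genes 3 lower and 1 higher. Cycs lost its call without MI cDC2 library 1 (adjusted p = 0.0581) and with SS libraries 2 and 3 alone (adjusted p = 0.0822). The 34 cell cycle genes had a median of 0.97 but 1 call, Bub1b, a spindle checkpoint kinase (log2 difference 2.34 ± 0.61, SE; adjusted p = 0.0223). It lost its call without MI cDC2 library 1, SS cDC2 library 2 or SS macrophage library 3, with adjusted p from 0.0506 to 0.0872. The Bub1b call was also lost with SS libraries 2 and 3 alone (adjusted p = 0.113) and in a fit of the 15 libraries alone (adjusted p = 0.0681). Among genes that define dendritic cells, 2 of 12 shared ones were called, Itgax and Id2, and 1 of 12 cDC2 genes, Itgam. All 3 had the lower MI effect in cDC2, which for Itgax was a smaller rise and not a fall. Flt3 rose in both cell types. MI raised it 2.87-fold (log2 1.52 ± 0.26, adjusted p = 0.000182) in cDC2 and, from a very low level, raised it 3.81-fold (log2 1.93 ± 0.47, adjusted p = 0.00924) in macrophages, a difference of -0.41 ± 0.54 (log2, SE; adjusted p = 0.811).

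**Figure D5:**
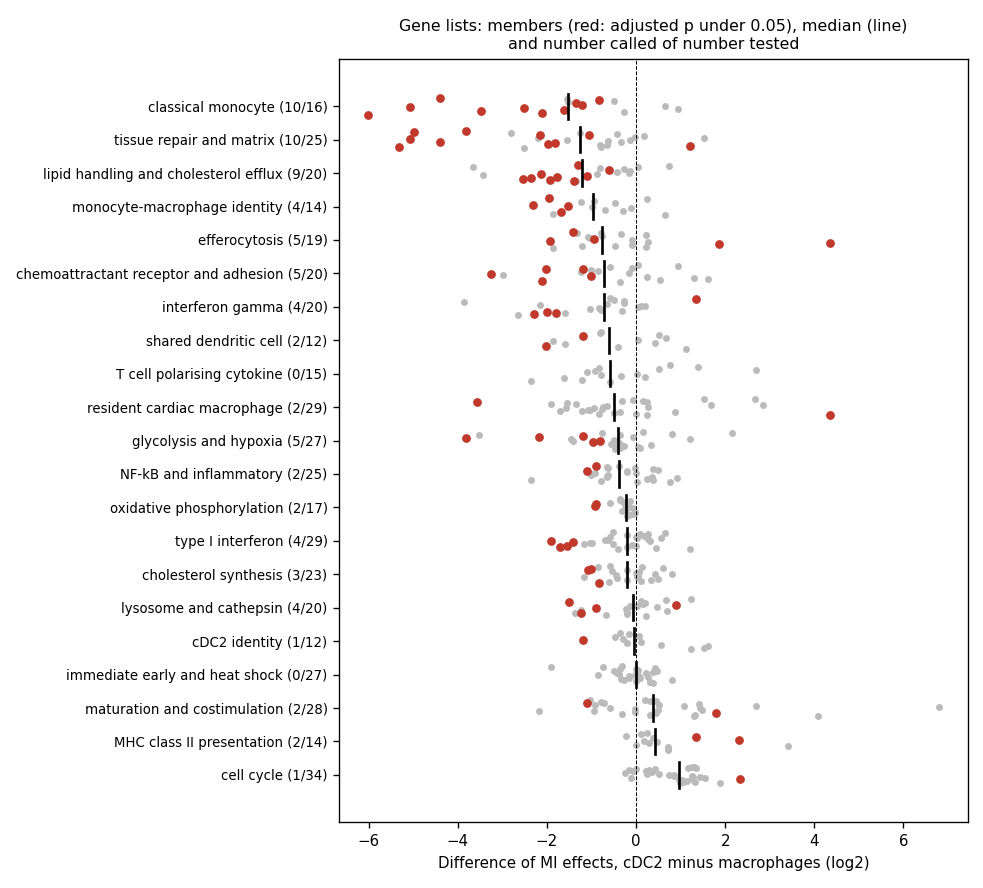
Difference of the MI effects (x axis, log2, cDC2 minus macrophages) for the members of 21 gene lists, ordered by their median (black line); red points are called genes, and the number called of those tested follows each name. The classical monocyte, tissue repair and lipid lists have the lowest medians (-1.53, -1.26 and -1.21), against -0.017 over all genes tested, and the cell cycle list the highest (0.97).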

How the data were processed

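Per the labels' protocols, SMART-Seq v4 amplified 4 ng of RNA from each sorted sample, which was sequenced as single reads of 75 nt. FastQC 0.11.4, Trimmomatic 0.35, TopHat2 2.1.0, SAMtools 0.1.18 and the mm10 genome are named in the submitters' processing notes; for the counting tool, the annotation and strand, the sources used here give nothing. The authors deposited raw whole-number counts of reads per gene. Entries for reads in no gene (6.42% to 16.9% in no feature, 0.857% to 1.21% ambiguous) stayed out of library sizes and tests. Without strand, reads of overlapping genes cannot be told apart.

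The main test was the quasi-likelihood test (robust) of edgeR 4.0.16 in R 4.3.3, with TMM factors, 1 mean per group (8 groups, 31 libraries), and filterByExpr (minimum count 10). Benjamini-Hochberg adjustment ran over 13039 genes. On simulated data the test recovered 27% of 2-fold and 53% of 4-fold differences, with 3 false calls. Alternatives used DESeq2 1.42.0, limma 3.58.1 and the settings named in the closing section. A library pair of the same group differed by at least 14.3 in chi-square per degree of freedom, which is above counting noise, so all were counted as separate libraries; repeat amplifications of 1 sample could differ as much. Gene positions are from GENCODE M21, matched by symbol.

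The members, lists and tests were chosen with earlier results of these data known. The naming rule took, among called genes with at least 10 CPM in 1 group and no overlap of states in 1 cell type, up to 10 with opposite effects and the 8 largest in each direction, plus up to 3 called members of each list by adjusted p. Not all of these are printed, and 30 further genes were added after their values were seen (Il1rn, Mpeg1, Cd84, Hpse, Cd33, Gpr183, Tlr8, Chil3, Ly6c2, Lgals3, Plaur, Abcg1, Nr1h3, Apoe, Cxcr4, Pkm, Rsad2, Gbp2, Kcnn4, Arg1, H2-Aa, H2-Ab1, Ccr7, Fscn1, Flt3, Spp1, Cd163, Slc14a1, Nfil3 and Cd300lb). Results of a few genes are not reported here.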

Additional observations from a re-analysis of the deposited data

Results flagged for a closer look

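The comparison itself is a difference between cell types, tested as such: 586 genes had MI effects that differed between cDC2 and macrophages, and 62 of them had opposite effects that both passed.

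Among 272 combinations of a named gene and a group of 4 libraries, 14 held a library far from the other 3 by Dixon's criterion, whose threshold is set so that chance alone passes it in about 1 in 20 groups. The 14 lie near that share. Of the 14, 3 were in SS cDC2 and 11 in macrophages. In SS cDC2, C4b was high in library 2 (39.6 CPM), Zfp366 low in library 1 (0.196 CPM) and Kit high in library 3 (63.0 CPM). In SS macrophages, Kit was high in library 2 (3.73 CPM), Fn1 high (175.8 CPM) and Gpr183 low (213.8 CPM) in library 4, and Fscn1 high in library 1 (29.8 CPM). MI macrophage library 2 was high for Adam8 (148.5 CPM), Fn1 (1363 CPM) and Arg1 (306.7 CPM). It also held the only Hip1r read of its group, 1 read (0.102 CPM). MI macrophage library 4 was high for Kcnq1 (4.87 CPM) and Oasl1 (75.3 CPM), and library 1 low for Cd36 (52.6 CPM).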

How the results depend on the processing

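The labels number the replicates alike in the 4 groups. Deviations of same-numbered cDC2 and macrophage libraries correlated at 0.109 to 0.160 in the 4 SS pairs and 0.00854 to 0.0383 in the 3 MI pairs, so every SS pair and no MI pair was over 0.1; among 12 SS pairs of unlike number 1 was over 0.1. The reported test was fitted without a block, though the numbers may pair the SS libraries. With a replicate block by state and number 706 genes were called (223 higher, 483 lower in cDC2), and with a block by number alone 698 (225 and 473), of which 71 had opposite effects. The first of these blocks absorbs the state, so it gave no count of opposite effects; of the named genes, Gbp2, Kit, Kcnq1, Zfp366 and Rgl3 lost their calls in it (adjusted p = 0.0536 to 0.299).

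Without 1 library at a time, 414 to 642 genes were called, 130 to 202 higher and 282 to 441 lower in cDC2, and 37 to 64 had opposite effects. With SS libraries 1 and 4 alone the counts were 306 (103 higher, 203 lower) and 23 opposite, and with 2 and 3 alone 379 (116 and 263) and 38. These splits leave fewer samples. With the endothelial and mural marker level as a covariate 553 were called and 36 had opposite effects. DESeq2 called 801, limma voom 576, upper-quartile factors 571, RLE factors 590, no filter 518, a stricter filter 629, and the 15 libraries alone 650. The share of calls that were higher in cDC2 was 28.3% to 37.3% over these settings, and 32.1% in the reported test.

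Of 84 named genes that were called, 52 kept the call under every setting and 70 under each omission of 1 library. Kit, with 0 reads in several macrophage libraries, reversed to -1.15 (adjusted p = 0.927) with SS libraries 1 and 4 alone. Kcnq1 reversed to 1.04 (adjusted p = 0.758) without MI macrophage library 4, the only MI macrophage library with reads for it; without 1 library at a time it ranged from -6.60 to 1.04. The median of the cDC2 identity list was -0.04, and 0.01 with upper-quartile factors. With 3 or 4 libraries in a group, differences of 2-fold were mostly missed on simulated data, so a gene not called is not shown to respond alike.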

Other observations

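The called genes can also be described by which cell type had more of them. Of the 398 genes with a lower MI effect in cDC2, 312 were higher in cDC2 than in macrophages in SS, and 147 after MI. Of the 188 with a higher MI effect in cDC2, 59 were higher in cDC2 in SS and 146 after MI. Over all 13039 genes tested, 6083 were higher in cDC2 in SS and 6224 after MI. The SS libraries enter both the level and the MI effect, so this direction follows in part from the choice of genes. Over all 586, the gap between the cell types was narrower after MI for 55.5%, beside 56.6% of all genes tested. By direction it was narrower for 59% of the 398 and 47.9% of the 188.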
